A study of Homo sapiens with 3 samples.

Results

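The comparison set 2 knockout libraries on one side and a single control library on the other, and asked where both knockouts lay on the same side of the control. RNA of human Hep3B cells, a hepatocellular carcinoma line, was sequenced in 3 libraries: 1 of control genotype, 1 of USP39-KO and 1 of SIRT7-KO. The labels give the line and the genotype. They do not say how each knockout was made, whether each came from 1 clone, or what the control cells carried. Members were the genes that reached 100 counts in any library, which kept 10181 of the 22827 genes in the table (44.6%). Of these, 178 passed only through the control. Of the 10181, 5351 lay on the same side of the control in both knockouts, at any size. They were 2680 above it in both (26.3%) and 2671 below it in both (26.2%). In 47.4% of members the control was the middle library. Because both ratios share 1 control library, their signs can agree without a shared difference of the knockouts.

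USP39 belongs to the U4/U6.U5 tri-snRNP of the spliceosome, where it is needed for splicing of pre-mRNA. It keeps the fold of a ubiquitin protease without being an active one in the classical sense. SIRT7 is a nuclear sirtuin that removes acyl groups from proteins, histones among them, and is known for its place at ribosomal DNA. Both ratios are taken over the same control library. Any departure of that library, biological or technical, enters both, and 1 library of each genotype cannot tell such a departure from a shared difference of the knockouts.

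Counts listed in a row stand in the order control, USP39-KO and SIRT7-KO throughout. Library totals ran from 16151522 to 19427940 counts, and the members held at least 99.52% of them. In this design no difference has a replicate check. The 2 knockouts are separate genotypes and not replicates of each other. A log2 ratio was called when it was at least 1 in size (2-fold) and its exact 95% interval excluded 0. These intervals cover counting error only, because 1 library of each genotype gives no spread between samples. No molecular identifiers were counted and reads may be copies of 1 molecule, so even counting error may exceed the intervals. Each target was lowest in its own library. USP39 had 94.1 CPM (counts scaled to a common library size) in the control library, then 64.8 in USP39-KO and 92.6 in SIRT7-KO, and SIRT7 had 50.6, 49.1 and 37.3 CPM. Neither target passed the 2-fold rule, and whole-gene counts do not show an edited exon or the protein.

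The liver identity named by the labels was not seen in liver marker genes. Of 25 hepatocyte markers, 11 were listed at 0 in every library, albumin (ALB), alpha-fetoprotein (AFP) and transthyretin (TTR) among them, and only HPD reached 100 counts. A 0 in this table can also be a gene the counting did not reach, because RPL7A and RPS18, ribosomal protein genes that all cells use, are listed at 0 as well. Where a gene was counted, 0 counts allow up to 0.154, 0.182 and 0.184 CPM. Markers with reads were also low, such as SERPINA1 with 2, 0 and 1 counts. With the 11 at 0 included, 19 of the 25 had under 10 counts in every library. Summed hepatocyte markers were 7.98 CPM in the control library, then 2.13 in USP39-KO and 10.7 in SIRT7-KO. These sums rest largely on a few genes, such as HPD with 36, 3 and 105 counts and FGB with 55, 1 and 2. None of 14 blood and immune markers reached 100 counts, and their summed level was 7.10 to 8.39 CPM over the libraries. Other marker lists had 1 of 10 endothelial, 2 of 12 fibroblast and stellate, 1 of 11 neural, 3 of 12 keratinocyte and 5 of 9 cholangiocyte markers at 100 counts or more. Cholangiocyte markers summed to 722.7 to 892 CPM, keratinocyte markers to 577.3 to 682.4, fibroblast and stellate markers to 116.9 to 140.3, endothelial markers to 42.2 to 79.7 and neural markers to 16.4 to 24.2. Their part in the results below was not tested.

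Both knockouts were 2-fold higher than the control in 11 genes (0.108% of the 10181) and 2-fold lower in 47 (0.462%). The knockouts lay 2-fold on opposite sides of the control in 20 genes (0.196%). For background, USP39-KO by itself was called higher than the control in 0.471% of genes and lower in 1.24%, and SIRT7-KO in 1.34% and 2.06%. The direct comparison of SIRT7-KO with USP39-KO called 502 genes (4.93% of members, with 2.76% higher and 2.17% lower in SIRT7-KO). That count needs 1 call, while a shared gene needs 2 calls at once, so the sizes of these sets cannot be compared directly. No pair of libraries was called in 9523 genes (93.5%).

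**Figure D1:**
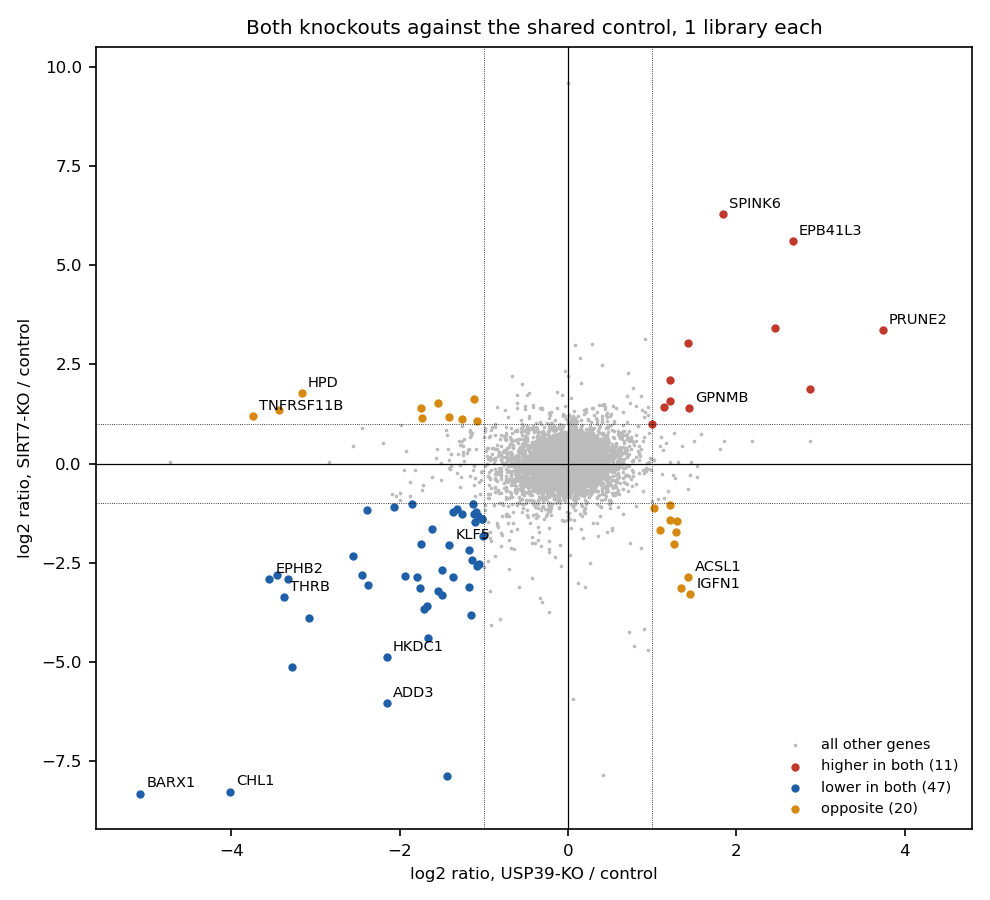
Each point is 1 of 10181 genes, with the log2 ratio of USP39-KO to control on the horizontal axis and of SIRT7-KO to control on the vertical axis; dotted lines mark 2-fold. The lower left corner holds 47 genes lower in both knockouts and the upper right 11 genes higher in both, and the control library is the denominator of both axes.

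Promoter sequence is shown for a few genes that stand for the 3 patterns, so that the letters before their start sites can be read beside the values. They were picked among named genes whose 250 bases before the RefSeq start (GRCh38.p14) overlap no exon of GENCODE 29. PRUNE2 and STEAP4 were higher in both knockouts, KLF5 and EPHB2 were lower in both, and SLC6A19 was on opposite sides. Capitals mark matches to the TATA box letters TATAAA, the CCAAT box or the GC box letters GGGCGG, or to the reverse complement of these, and the sequences run from 5′ to 3′ on the strand of the gene.
PRUNE2 (chr9:76906115-76906364, minus strand): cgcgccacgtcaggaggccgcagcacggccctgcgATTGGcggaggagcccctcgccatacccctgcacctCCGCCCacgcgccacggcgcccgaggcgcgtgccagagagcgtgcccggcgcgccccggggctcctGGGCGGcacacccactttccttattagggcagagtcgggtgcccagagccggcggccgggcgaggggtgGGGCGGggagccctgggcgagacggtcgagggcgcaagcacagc
STEAP4 (chr7:88306895-88307144, minus strand): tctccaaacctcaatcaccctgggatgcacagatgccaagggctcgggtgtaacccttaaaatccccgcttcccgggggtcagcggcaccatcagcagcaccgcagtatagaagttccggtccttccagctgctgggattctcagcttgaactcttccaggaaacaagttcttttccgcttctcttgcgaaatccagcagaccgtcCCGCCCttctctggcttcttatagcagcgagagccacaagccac
KLF5 (chr13:73054726-73054975, plus strand): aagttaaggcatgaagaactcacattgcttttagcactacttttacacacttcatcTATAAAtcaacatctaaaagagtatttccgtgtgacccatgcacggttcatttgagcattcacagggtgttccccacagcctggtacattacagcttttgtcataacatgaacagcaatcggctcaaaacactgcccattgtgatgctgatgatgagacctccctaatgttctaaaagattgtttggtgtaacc
EPHB2 (chr1:22710588-22710837, plus strand): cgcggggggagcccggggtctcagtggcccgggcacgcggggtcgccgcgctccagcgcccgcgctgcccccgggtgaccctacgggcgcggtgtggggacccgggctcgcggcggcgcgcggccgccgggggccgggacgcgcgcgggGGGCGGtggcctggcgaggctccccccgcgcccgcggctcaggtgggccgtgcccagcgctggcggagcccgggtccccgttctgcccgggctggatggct
SLC6A19 (chr5:1201345-1201594, plus strand): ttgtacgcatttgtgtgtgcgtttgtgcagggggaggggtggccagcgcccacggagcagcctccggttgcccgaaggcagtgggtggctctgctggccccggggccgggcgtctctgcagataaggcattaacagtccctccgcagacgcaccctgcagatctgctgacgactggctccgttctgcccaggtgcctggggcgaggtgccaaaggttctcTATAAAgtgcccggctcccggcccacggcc

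The windows differ in base composition within each shared pattern. GC content was 76.4% in PRUNE2 and 55.6% in STEAP4, 40.8% in KLF5 and 84.8% in EPHB2, and 66.0% in SLC6A19. The SLC6A19 window holds TATAAA beginning 30 bases before the start, the usual place of a TATA box, and that of KLF5 holds TATAAA 194 bases before it. PRUNE2 has 3 GGGCGG matches and 1 CCAAT match, and STEAP4 and EPHB2 have 1 each. Over the 8276 members with a listed promoter of 300 bases (250 before and 50 after the start), GGGCGG was present in 72.4%, CCAAT in 36.9% and TATAAA in 4.94%, both strands counted. Other motifs searched on both strands had no match in the 5 windows: TGANTCA (4.13% of promoters), TGACGTCA (3.69%), CACGTG (10.6%), CATGTG (5.91%) and CAAAGTCCA (0.217%). A match of letters is a description and not a bound site. PRUNE2, KLF5 and EPHB2 have 2 listed promoters each, of which the first is shown. Promoters were matched for 9 of the 11 genes higher in both, 36 of the 47 lower in both and 13 of the 20 opposite. The last 2 shares are under 80%, so a comparison of motif content between the patterns is void.

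Genes higher in both knockouts came from several protein classes and were mostly low in the control. Only GPNMB and ANPEP had at least 100 counts in every library, and 9 of the 11 were under 100 counts in the control. Those 9 passed the filter through a knockout, and the rule needs the control to be lowest. A low control is thus partly built into the selection. The 11 genes together held 945 counts in the control library, then 2460 in USP39-KO and 4412 in SIRT7-KO. Their median log2 ratio was 1.44 in USP39-KO and 2.10 in SIRT7-KO, against 0.01 and -0.01 over all members. SIRT7-KO was the farther from the control in 8 of them, and in 6282 of all 10181 members. As the members were picked by these ratios, the medians describe them and test nothing.

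PRUNE2 (ENSG00000106772; chromosome 9, 76611376 to 76906087, minus strand, GENCODE 29), a large BCH-domain protein, had the largest ratio of the set in USP39-KO. It had 28 counts in the control library, then 322 in USP39-KO and 246 in SIRT7-KO, or 1.44, 19.6 and 15.1 CPM. Both knockouts stood far above the control and near each other. The log2 ratios were 3.74 (95% interval 3.20 to 4.38) in USP39-KO and 3.36 (2.82 to 4.01) in SIRT7-KO, and the knockouts themselves differed 1.30-fold. The transposase-derived gene PGBD5 (ENSG00000177614) went the same way with the knockouts farther apart, at 39, 247 and 122 counts. That is 7.48-fold higher in USP39-KO and 3.72-fold in SIRT7-KO.

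EPB41L3 (ENSG00000082397; chromosome 18, 5392381 to 5630700, minus strand) encodes a protein of the 4.1 family that ties membrane proteins to the actin and spectrin skeleton. It had 17 counts in the control library, then 94 in USP39-KO and 718 in SIRT7-KO. Its log2 ratio was 2.67 (1.95 to 3.55) in USP39-KO and 5.61 (4.96 to 6.44) in SIRT7-KO, a direct difference of 7.70-fold between the knockouts. SPINK6 (ENSG00000178172; chromosome 5, 148202794 to 148215137, plus strand), a Kazal-type inhibitor of kallikrein proteases, was spread still wider, with 18, 56 and 1223 counts. It was 3.67-fold higher than the control in USP39-KO and 80.9-fold higher in SIRT7-KO. For these 2 genes the shared direction covers levels that differ between the knockouts by more than 2-fold, as it does for PRKCB and PGBD5.

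The metalloreductase STEAP4 had 12, 58 and 113 counts, and PRKCB, a protein kinase C isoform, had 18, 42 and 127. ZNF831, a zinc finger gene, had 45, 89 and 164 counts. SLC1A2, a glutamate transporter, had 85, 167 and 215 counts. In each of these 4 the control was lowest and SIRT7-KO highest. Log2 ratios in USP39-KO were 2.46, 1.43, 1.21 and 1.21 in that order, and in SIRT7-KO 3.43, 3.03, 2.10 and 1.58.

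GPNMB (ENSG00000136235; chromosome 7, 23235967 to 23275108, plus strand), a transmembrane glycoprotein of lysosome-rich and pigment cells, was well measured and had matching knockouts. Its counts were 287, 661 and 637, or 14.8, 40.2 and 39.0 CPM. The knockouts differed by -0.04 on the log2 scale (-0.20 to 0.12), and each was about equally far above the control, at 1.44 (1.24 to 1.65) and 1.40 (1.20 to 1.61). ANPEP, the cell-surface aminopeptidase N, had 309, 576 and 700 counts, with log2 ratios of 1.14 and 1.43. SPTBN4, a spectrin beta chain, had 87, 148 and 147 counts and sat at the limit of the rule, with 1.00 in both knockouts. It was no longer called when libraries were scaled by their totals alone (0.99 in USP39-KO) or with a larger prior count (0.96 in both).

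Genes lower in both knockouts were more numerous, and 33 of the 47 passed the 100-count filter only through the control. For such genes a lower value in the knockouts is partly built into the selection, which admits a gene for being high in 1 library. Their summed counts were 18445 in the control library, then 5203 in USP39-KO and 3199 in SIRT7-KO. The median log2 ratio was -1.61 in USP39-KO and -2.81 in SIRT7-KO. SIRT7-KO was the lower of the knockouts in 36 of 47. Over all 10181 members it was the lower in 5275, and the farther from the control in 6282. In 16 genes the knockouts lay within 1.5-fold of each other, and in 21 they were called different.

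BARX1 (ENSG00000131668; chromosome 9, 93951622 to 93955372, minus strand), a homeobox transcription factor of stomach and craniofacial development, was nearly absent from both knockouts. It had 178 counts in the control library, then 4 in USP39-KO and 0 in SIRT7-KO. USP39-KO was 37.7-fold lower, and SIRT7-KO was at least 49.8-fold lower against a floor of 3 counts in that library. CHL1 (ENSG00000134121; chromosome 3, 196596 to 409417, plus strand), a neural cell adhesion molecule of the L1 family, had 540, 28 and 1 counts. Its log2 ratio was -4.01 (-4.63 to -3.48) in USP39-KO and -8.27 (-14.13 to -6.34) in SIRT7-KO. With 4 counts or fewer in a library, the order of the knockouts for BARX1 was not resolved.

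In a set of lower genes the 2 knockouts were not told apart. The thyroid hormone receptor THRB had 115 counts in the control and 9 in each knockout, a log2 ratio of -3.37 in USP39-KO and -3.36 in SIRT7-KO. DAPK1 (ENSG00000196730; chromosome 9, 87497228 to 87708633, plus strand), a calcium/calmodulin-dependent kinase linked to cell death, had 660, 102 and 78 counts. Its log2 ratios were -2.45 (-2.77 to -2.15) and -2.82 (-3.19 to -2.49), and the difference between the knockouts, -0.37, had an interval of -0.82 to 0.06. EPHB2, an ephrin receptor tyrosine kinase, had 200, 14 and 22 counts. RBPMS, an RNA-binding protein, had 162, 12 and 19. The nicotinic receptor subunit CHRNA4 had 112, 9 and 12 counts, and the glutamate transporter SLC1A1 had 189, 27 and 31. For each of the 6 genes the interval of the direct difference between knockouts included 0, at these low counts. An equal level is not shown by this, because the intervals reached 3.35-fold for EPHB2 and 3.61-fold for RBPMS and CHRNA4. CTTNBP2, which binds cortactin, had 114, 11 and 6 counts, and its knockouts were not resolved either (-0.81, -2.58 to 0.70).

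In other lower genes SIRT7-KO lay well below USP39-KO. ADD3 (ENSG00000148700; chromosome 10, 109996368 to 110135565, plus strand), the gamma subunit of adducin in the membrane skeleton, had 665, 127 and 8 counts. It was 4.44-fold lower than the control in USP39-KO and 69.8-fold lower in SIRT7-KO. HKDC1 (ENSG00000156510; chromosome 10, 69220303 to 69267559, plus strand), a hexokinase family member, had 1036, 198 and 29 counts. EPS8L3, related to the EGF receptor substrate EPS8, had 396, 34 and 9 counts. The direct difference between the knockouts was 15.7-fold for ADD3, 6.77-fold for HKDC1 and 3.75-fold for EPS8L3.

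HKDC1, KLF5, HSD17B12 and SORCS2 had the highest mean CPM of the lower set, a scale not corrected for gene length. KLF5 (ENSG00000102554; chromosome 13, 73054976 to 73077542, plus strand), a zinc finger transcription factor of epithelial cells, had 5280 counts in the control library, then 1681 in USP39-KO and 1060 in SIRT7-KO. That is 271.8, 102.1 and 65.0 CPM, with log2 ratios of -1.41 (-1.49 to -1.33) and -2.06 (-2.16 to -1.97). HSD17B12, an enzyme of fatty acid elongation, had 1123, 454 and 378 counts. SORCS2, a sortilin-family receptor, had 595, 249 and 189. The ratios of KLF5, HSD17B12 and SORCS2 were smaller than those of HKDC1, at -2.15 (-2.37 to -1.93) and -4.88 (-5.49 to -4.38). Of the 47 genes, 4 had at least 100 counts in every library.

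**Figure D2:**
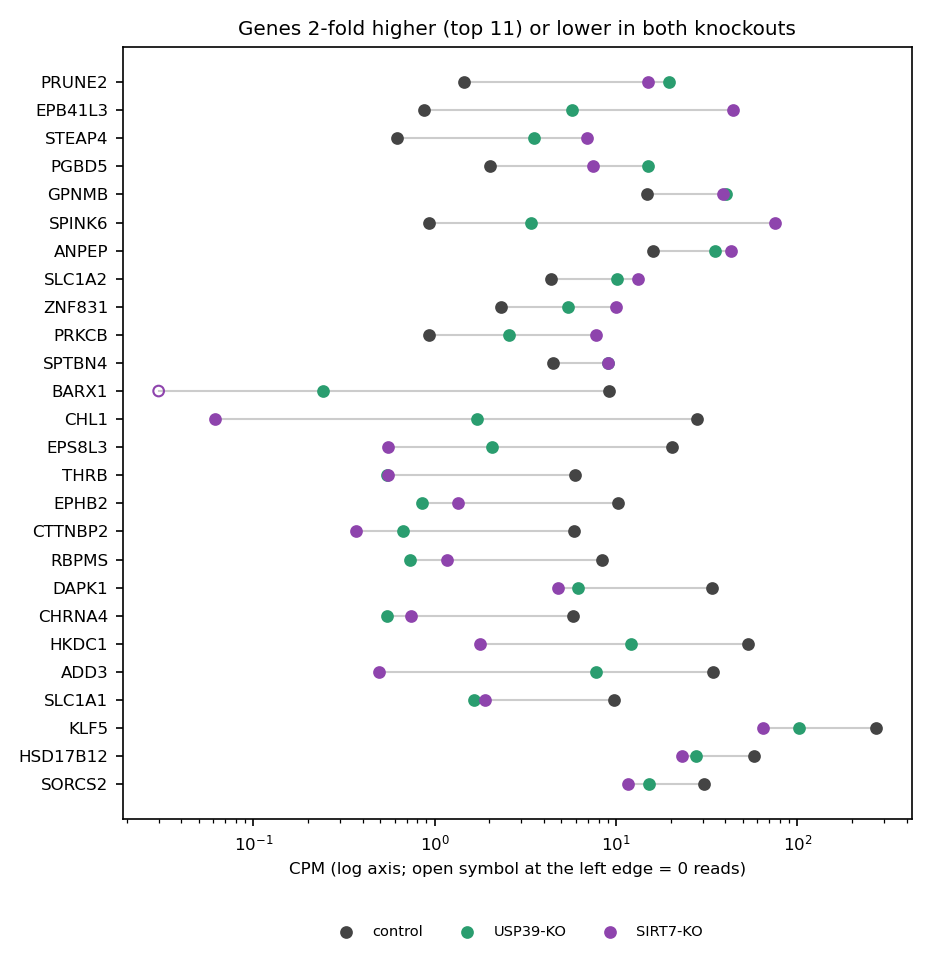
CPM of the 11 genes higher in both knockouts (upper rows) and 15 of the genes lower in both (from BARX1 down), on a log axis with 1 point per library. The control point lies at one end of every line, below both knockouts in the first set and above both in the second; the open symbol for BARX1 stands for 0 reads in SIRT7-KO.

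The following genes, also lower in both, were named after their values were seen. RNF43, a ubiquitin ligase that removes Wnt receptors from the cell surface, had 123, 27 and 14 counts. HNF4A, a nuclear receptor of liver and gut, had 113, 29 and 7 counts. MECOM, a zinc finger regulator, had 761, 230 and 64 counts, and DRGX, a homeobox gene, had 188, 50 and 7. The activin-binding protein FST had 380, 93 and 44 counts. The growth factor NRG1 had 156, 55 and 54 counts, and LAMA3, a laminin chain of epithelial basement membranes, had 174, 69 and 63. In NRG1 and LAMA3 both knockouts were near each other, while in HNF4A, MECOM and DRGX SIRT7-KO was called lower than USP39-KO. The identifier ENSG00000108753, with 410, 129 and 1 counts, had no symbol in the tables used.

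The position of the genes in the genome was read for both shared sets. No 2 genes of the 11 or of the 47 were neighbours among the members. At 1.5-fold, 4 neighbouring pairs were lower in both knockouts: INAVA with KIF21B, CRB3 with DENND1C, COL4A4 with COL4A3, and PTGDS with LCNL1. The type IV collagen genes COL4A3 and COL4A4 start head to head, 112 bases apart in GENCODE 29. COL4A4 had 686, 332 and 38 counts and COL4A3 had 210, 92 and 32. CRB3 and DENND1C overlap by 14 bases, and no source used here says whether the counting used strand.

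Genes that set the knockouts on opposite sides of the control were split evenly, with 10 higher in USP39-KO and 10 higher in SIRT7-KO. The control lies between the knockouts in each, and their direct comparison does not use the control library. TNFRSF11B, the decoy receptor osteoprotegerin, had 70 counts in the control library, then 4 in USP39-KO and 136 in SIRT7-KO. The tyrosine-catabolism enzyme HPD had 36, 3 and 105 counts, and the lipid transporter ABCA8 had 69, 5 and 148. The direct ratio of SIRT7-KO to USP39-KO was 34.3-fold for TNFRSF11B, 35.3-fold for HPD and 29.9-fold for ABCA8. These ratios rest on 3 to 5 counts in USP39-KO, and the log2 interval for HPD ran from 3.55 to 7.44. The serpin SERPINB5 had 73, 18 and 162 counts, a direct difference of 9.08-fold.

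In the other direction, ACSL1 (ENSG00000151726; chromosome 4, 184755595 to 184826818, minus strand), a long-chain acyl-CoA synthetase, had 384, 878 and 44 counts. Its log2 ratio was 1.43 (1.26 to 1.61) in USP39-KO and -2.86 (-3.36 to -2.42) in SIRT7-KO. HNF4G, a nuclear receptor close to HNF4A, had 57, 123 and 5 counts. The pair HNF4A and HNF4G thus shared a lower level in SIRT7-KO, while in USP39-KO HNF4A was below the control and HNF4G above it. IGFN1, an immunoglobulin-domain protein of muscle, had 121, 281 and 10 counts, and the amino acid transporter SLC6A19 had 70, 143 and 14. The remaining 12 opposite genes had direct log2 differences between 2.13 and 3.08 in size; among them were the cholesterol exporter ABCA1 (224, 87 and 584 counts) and the ferritin receptor SCARA5 (1019, 325 and 1929), named after their values were seen.

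**Figure D3:**
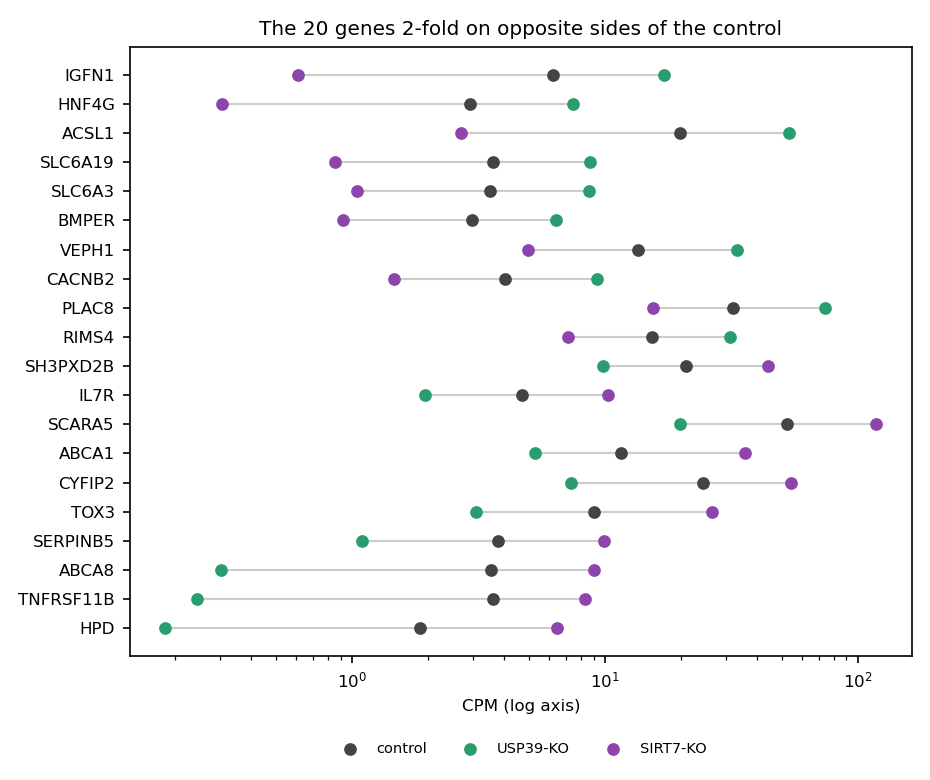
CPM of the 20 genes called on opposite sides of the control, on a log axis with 1 point per library, ordered by the direct difference. The control point lies inside every line: the upper 10 genes have USP39-KO at the right end and the lower 10 have SIRT7-KO there.

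Each library was then treated in turn as the odd one out. The control stood 2-fold apart from both knockouts in 58 genes (0.570%), 47 of them with the control highest. USP39-KO stood apart from the other 2 libraries in 94 genes (0.923%; 28 higher, 0.275%, and 66 lower, 0.648%), and SIRT7-KO in 212 (2.08%; 88 higher, 0.864%, and 124 lower, 1.22%). Of the 47 genes with the control highest, 33 passed the limit of 100 counts only through the control. Among genes with 100 counts in every library, an alternative chosen after seeing the data, the control was highest in 4 and lowest in 2. Under that limit USP39-KO stood apart in 33 genes and SIRT7-KO in 84. The control was the middle library in 47.4% of all members, USP39-KO in 32.8% and SIRT7-KO in 19.8%. USP39-KO was the highest library in 35.3% and the lowest in 31.9%, and SIRT7-KO the highest in 38.5% and the lowest in 41.7%.

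**Figure D4:**
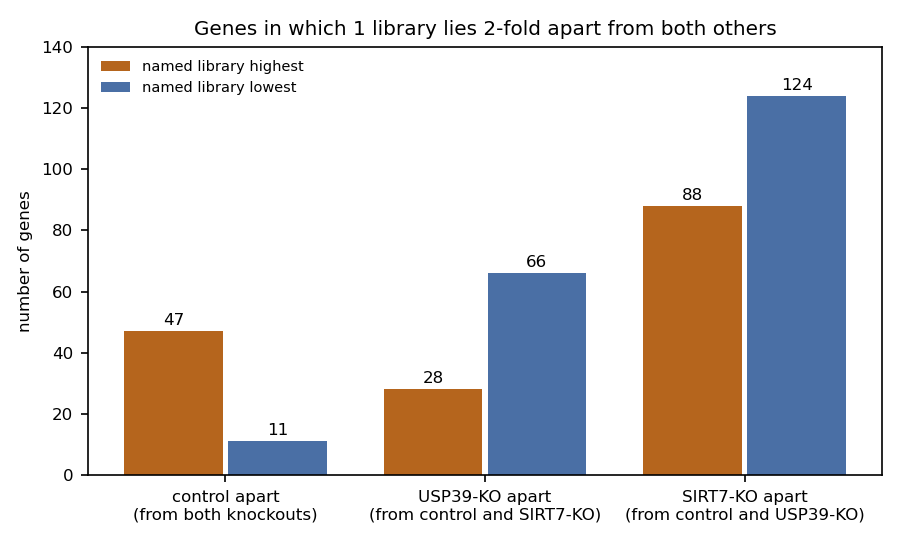
Number of genes in which the named library is called 2-fold apart, in the same direction, from both of the other libraries; brown bars count genes where it is highest and blue bars where it is lowest. The control gives 47 and 11 genes, USP39-KO 28 and 66, and SIRT7-KO 88 and 124. With 100 counts in every library the control gives 4 and 2, USP39-KO 33 in both directions together, and SIRT7-KO 84.

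Genes apart in 1 knockout show what the shared sets leave out. MFF, a receptor for mitochondrial fission, had 3005 counts in the control library, then 7338 in USP39-KO and 1980 in SIRT7-KO. ABCC9, the sulfonylurea receptor subunit of a potassium channel, had 119, 740 and 149. The imprinted, retrotransposon-derived PEG10 had 2212, 261 and 1910 counts, and the kinase gene PRKCH had 422, 13 and 366. In these 4 genes USP39-KO was the outlying library and SIRT7-KO was not called against the control. For SIRT7-KO, the matrix protein gene FN1 had 871, 813 and 4621 counts. SPINK5, another Kazal-type inhibitor, had 4729, 3237 and 350 counts, and the calcium channel RYR1 had 251, 221 and 3. TMEM212 had 367 counts in SIRT7-KO and 0 in both other libraries, at least 145.6-fold higher than the control.

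Of the 502 genes called between the knockouts, 25 also lay in a shared set (4 higher and 21 lower in both) and 20 were the opposite genes. SIRT7-KO alone was called against the control in 169 and USP39-KO alone in 72. In the last 216 neither knockout passed the rule against the control, which lay between them in all 216. This middle position is largely fixed by the rule and is not a separate observation. Knockouts on the same side of the control, each too close to it for the size rule, cannot lie far enough apart to be called. By sign alone, 127 of the 502 had both knockouts on the same side of the control and 375 had them on opposite sides. The 375 include these 216, so that split is partly built in too.

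At any size, 2680 members (26.3%) were above the control in both knockouts and 2671 (26.2%) below it in both. USP39-KO was above and SIRT7-KO below in 2563 (25.2%), and the reverse held in 2266 (22.3%). With both intervals excluding 0 the counts were 930 above (9.13%), 987 below (9.69%), 784 (7.70%) and 717 (7.04%) in the same order. At 1.5-fold, 55 genes were higher in both (0.540%), 128 lower (1.26%) and 86 opposite (0.845%). With size factors from DESeq2, 27.7% of members were above in both and 24.8% below, and with library totals alone 25.9% and 26.9%, so the balance of above and below turned with the scaling.

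The following genes of the shared sets at 1.5-fold were named after their values were seen. CGA, the alpha chain of glycoprotein hormones, had 5911 counts in the control library, then 9715 in USP39-KO and 8517 in SIRT7-KO, log2 ratios of 0.96 (0.91 to 1.00) and 0.78 (0.73 to 0.83). FOS and EGR1, immediate early transcription factors, had 1368, 2235 and 2697 counts and 186, 304 and 418 counts. The list of immediate early genes did not share this rise as a whole. Of its 29 measured members, 9 were above the control in both knockouts and 6 below, or 6 and 2 with both intervals excluding 0. The list medians were 0.09 in USP39-KO and 0.0 in SIRT7-KO. GDF15, a stress-responsive cytokine, had 618, 878 and 819. On the lower side, the keratin KRT17 had 5483, 2698 and 1835 counts. AXIN2, a feedback inhibitor and common readout of Wnt signalling, had 561, 258 and 228, and WNT7B, a ligand of the pathway, had 618, 318 and 327. The insulin receptor substrate IRS1 had 1263, 658 and 581 counts. In each of these 8 genes the knockouts lay within 2-fold of each other and the control lay outside them.

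Gene lists were read in the same way, by how many of their measured members lay above or below the control in both knockouts. Over all members, 26.3% were above in both and 26.2% below in both, or 9.13% and 9.69% with both intervals excluding 0. USP39-KO was above and SIRT7-KO below in 25.2% (7.70% with both intervals excluding 0), and the reverse in 22.3% (7.04%). The lists are described by counts with no test.

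Heat shock and chaperone genes, which refold damaged proteins, lay above the control in both knockouts in 14 of 16 members, and in none below. With both intervals excluding 0, 12 of 16 were above in both. No member passed the 2-fold rule in both. Median log2 ratios were 0.11 in USP39-KO and 0.29 in SIRT7-KO. DNAJB4, a co-chaperone, had 870, 924 and 1609 counts (0.33 and 1.14), and the constitutive chaperone HSPA8 had 15694, 13878 and 25627 (0.06 and 0.96). DNAJB1 had log2 ratios of 0.21 and 0.78, BAG3 of 0.22 and 0.76, and the abundant HSP90AA1 of 0.03 and 0.22. The sign was thus shared, and the size in USP39-KO was small for most members.

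Lysosome and autophagy genes were above the control in both knockouts in 19 of 34 members and below in 3, with a median of 0.16 in each. With both intervals excluding 0, 9 were above and 0 below. The cholesterol-binding protein NPC2 had 894, 1050 and 1575 counts, log2 ratios of 0.47 and 1.07. The protease CTSL had 0.30 and 0.58, and LIPA, the acid lipase, had 0.17 and 0.48. ATG7, an autophagy enzyme, had -0.05 and -0.43, and the abundant PSAP had 0.05 and 0.17. Cytosolic ribosomal protein genes went the other way, with 49 of 69 members below the control in both and 8 above, and 26 below with both intervals excluding 0. Their medians were small, -0.05 in USP39-KO and -0.14 in SIRT7-KO. RPS29 had 319, 201 and 203 counts (-0.43 and -0.40), and the member with the highest mean CPM, RPL4, had -0.04 and -0.22. Ribosomal protein genes have many processed copies, so their counts are uncertain.

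Genes of collagens and the basement membrane, the sheet beneath epithelia, had medians of -0.25 in USP39-KO and -0.26 in SIRT7-KO. Of 26 members, 10 lay below the control in both knockouts, all 10 with both intervals excluding 0, and 3 lay above. LAMA3 was the member 2-fold lower in both. The abundant COL7A1, the collagen of anchoring fibrils, had 27759, 18200 and 17021 counts (-0.37 and -0.45). NF-kB subunits and feedback genes were below in both in 10 of 19 members and above in 2, or 7 and 0 with both intervals excluding 0, with medians of -0.18 and -0.28. Of these, the cytokine IL6 had 163, 75 and 66 counts (-0.88 and -1.05). The subunit RELB had 587, 427 and 110 counts (-0.22 and -2.16), and the inhibitor of apoptosis BIRC3 had -0.47 and -1.35. SOCS3 was on the other side in SIRT7-KO, at -0.06 and 1.26. In the Wnt list, 7 of 26 members were below in both, all 7 with both intervals excluding 0, and 6 were above, 2 of them with both intervals excluding 0. Of these members 3 were 1.5-fold lower in both: AXIN2, RNF43 and WNT7B. The abundant Wnt target MYC had -0.17 and -0.24.

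Other lists had the control between the knockouts. The 13 coding genes carried on mitochondrial DNA were all above the control in USP39-KO and below it in SIRT7-KO, each with both intervals excluding 0. Their medians were 0.15 and -0.33, and their summed level was 48480, 53440 and 39180 CPM. The member with the most counts, MT-CO1, had 298696, 263247 and 180638 counts. These counts are not scaled, and the control library had the highest total. Mitochondrial genes also have nuclear copies, which can take or lend reads. Targets of ATF4, the transcription factor of the amino acid response, were above in USP39-KO and below in SIRT7-KO in 18 of 27 members, 16 of them with both intervals excluding 0. Asparagine synthetase (ASNS) had 3693, 4480 and 970 counts (0.52 and -1.68), and the cystine transporter SLC7A11 had 0.18 and -1.88. CHAC1, which degrades glutathione, had 0.03 and -2.30. STC2 was an exception, below in both at -0.28 and -1.40, and GDF15 was above in both.

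Hypoxia and glycolysis genes showed the reverse order, below the control in USP39-KO and above it in SIRT7-KO in 19 of 31 members, 16 with both intervals excluding 0. The medians were -0.18 and 0.22. Adrenomedullin (ADM) had 684, 320 and 1090 counts (-0.86 and 0.92), and the carbonic anhydrase CA9 had 147, 50 and 146 (-1.31 and 0.24). EGLN3, an oxygen-sensing hydroxylase, had -1.25 and 0.45. The glucose transporter SLC2A3 was below in both, at -0.36 and -1.93, and the abundant enolase ENO1 had -0.05 and 0.04. Cholesterol synthesis genes were above in USP39-KO and below in SIRT7-KO in 10 of 20 members (9 with both intervals excluding 0) and above in both in 8 (3 with both intervals excluding 0). Their medians were 0.34 and -0.11, with HMGCS1 at 0.65 and -0.21 and lanosterol synthase (LSS) at 0.22 and -0.77.

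For the next lists, counts with both intervals excluding 0 follow the counts by sign. ER chaperone and unfolded protein response genes were above the control in both knockouts in 10 of 21 members and below in 1 (0 with DESeq2 size factors), and by interval in 7 and 0. Targets of p53, the damage-responsive transcription factor, were above in both in 13 of 27 and below in 1, but by interval in only 3 and 0. A further 10 were below in USP39-KO and above in SIRT7-KO, 6 of them by interval. For these the medians were 0.05 in USP39-KO and 0.39 in SIRT7-KO, with the cell cycle inhibitor CDKN1A at 0.08 and 1.13. Proteasome genes were below in both in 12 of 28 members and above in 2, but by interval in only 3 and 1, with medians of -0.01 and -0.04. S phase and replication genes were below in both in 16 of 39 and above in 3, by interval in 6 and 3, while 17 were above in USP39-KO and below in SIRT7-KO (10 by interval). Epithelial junction genes were below in both in 8 of 19 and above in 1, by interval in 5 and 0. Mitosis genes were mixed, with 11 of 39 above in both and 3 below, by interval 6 and 1, 16 above only in USP39-KO and 9 only in SIRT7-KO, and a median of 0.04 in each knockout.

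In several small families a few members fell in different patterns, while most members were in none of them. The lists were chosen with earlier results of these data known, so these members are described and not read as a trait of a family. Over all members, 0.108% were 2-fold higher in both knockouts, 0.462% lower in both and 0.196% opposite. Of the membrane skeleton list, with 18 members measured, EPB41L3 was 2-fold higher in both knockouts and ADD3 2-fold lower. Among 21 ABC transporters, ABCA8 and ABCA1 were opposite, and the drug exporter ABCB1 was lower in both at 148, 44 and 19 counts. SPINK6 was higher in both and SERPINB5 opposite among 11 serpins, SPINK inhibitors and kallikreins. Neural adhesion and axon guidance genes were below in both in 11 of 25 members and above in 6, by interval in 6 and 3, and CHL1 and EPHB2 were 2-fold lower. Developmental transcription factors were above in both in 19 of 42 and below in 8, by interval in 10 and 6, and BARX1 and DRGX were 2-fold lower.

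Lists tied to the targets themselves had medians from -0.10 to 0.11. Tri-snRNP and U4/U6 proteins, the partners of USP39, had medians of 0.11 and -0.07, with 5 of 20 members above in both, 1 below and 13 above only in USP39-KO, 3 of these 13 with both intervals excluding 0. LSM7 had 307, 316 and 345 counts (0.28 and 0.42), PPIH had -0.11 and -0.30, and the abundant helicase SNRNP200 had 0.02 and -0.10. Genes of RNA polymerase I and rRNA processing, the field of SIRT7, had medians of 0.06 and -0.10 over 33 members, of which 9 were above in both and 7 below. In 16 of the 33, USP39-KO was above and SIRT7-KO below the control, 5 of them with both intervals excluding 0. UTP4 had 686, 623 and 291 counts (0.10 and -0.98) and TAF1A had 323, 331 and 474 (0.27 and 0.80). No member of either list was called in both knockouts.

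**Figure D5:**
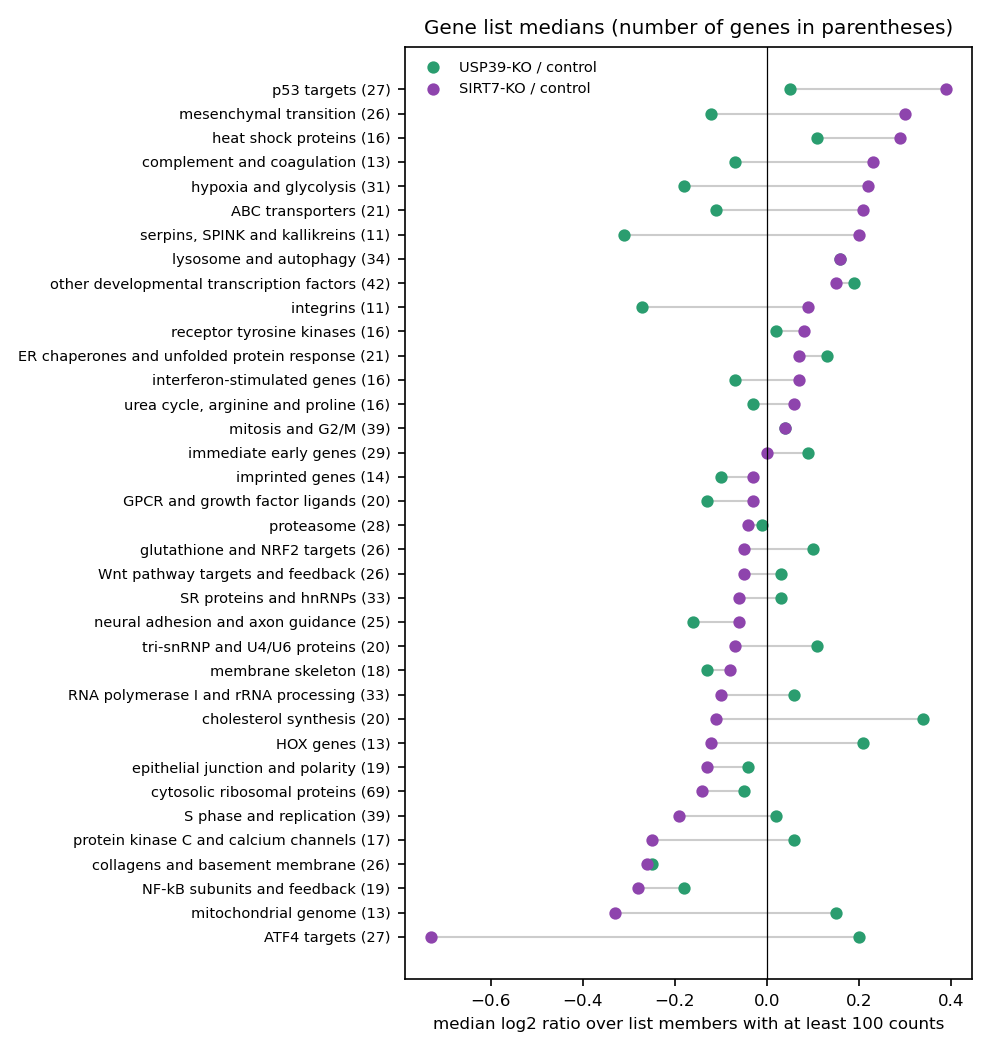
Median log2 ratio of each gene list with at least 10 measured members, in USP39-KO and in SIRT7-KO against the same control, ordered by the SIRT7-KO median. Points of a pair lie on the same side of 0 for heat shock proteins (0.11 and 0.29) and lysosome and autophagy genes (0.16 in both), and on opposite sides for ATF4 targets (0.20 and -0.73) and the mitochondrial genome (0.15 and -0.33).

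The limit of 100 counts decided which genes were read. Just inside it, 18 genes had a highest count of 100, among them BAIAP3 (66, 59 and 100 counts) and FAXDC2 (100, 51 and 64). Just outside, 13 genes had a highest count of 99, such as ACYP2 (99, 79 and 81) and BNC2 (99, 91 and 81). An alternative took the knockouts as 1 group, so that their difference served as the spread, with 1 residual degree of freedom. The edgeR quasi-likelihood test called 0 genes at an adjusted p under 0.05 (0.00%), with a smallest adjusted p of 0.884. Unadjusted, it listed a smaller share of the 10181 genes than the 0.05 that this limit gives where no gene differs. DESeq2 called 6 (0.0589%): EPB41L3 and PRUNE2 higher, and KLF5, BARX1, DAPK1 and EPS8L3 lower. As the 2 knockouts are different genotypes, neither test measures a replicate spread.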

How the data were processed

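RNA of 3 libraries (control, USP39-KO and SIRT7-KO, 1 each) was extracted with Trizol, and per the labels' protocols the TruSeq RNA kit was used. The authors deposited whole-number read counts per gene, not normalized, per the file headers. They also deposited FPKM, which equals the counts scaled by listed length and library total on every gene with reads, within a relative tolerance of 1e-06, and was not used further. No source used here names the aligner, counter, build or annotation.

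Counts were scaled with TMM factors (edgeR 4.0.16; 1, 0.9896 and 1.0104) to CPM. Log2 ratios used a prior count of 0.5, scaled by library size, with exact conditional binomial (Clopper-Pearson) 95% intervals; the call needed 2-fold and an interval excluding 0, in genes that reached 100 counts in any library. A count of 0 was given a floor of 3 counts. Symbols, coordinates and biotypes came from GENCODE 29 and a gene name table by Ensembl identifier; 120 members had no symbol. Promoters came from RefSeq (GRCh38.p14). Named genes were protein-coding: 12 each way by the interval bound nearest 0 (all 11 where fewer), 8 opposite, 4 each way for each knockout apart, the 4 most abundant of each shared set, and up to 4 members and the most abundant one per list; others are said to be named after their values were seen. The members and lists were chosen with earlier results of these data known. Alternatives were DESeq2 1.42.0 size factors, library totals, other count limits, folds, priors and intervals, and tests of both knockouts as 1 group (edgeR, DESeq2) under R 4.3.3. The steps were tested on simulated counts.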

Additional observations from a re-analysis of the deposited data

How the results depend on the processing

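Counts are given in the order higher in both, lower in both, opposite, different between the knockouts, USP39-KO apart and SIRT7-KO apart, and were 11, 47, 20, 502, 94 and 212. With a limit of 10 counts they were 54, 161, 36, 1087, 257 and 464, and with 500 counts 4, 9, 8, 187, 28 and 73. At 1.5-fold they were 55, 128, 86, 1527, 325 and 765, and at 4-fold 3, 13, 0, 86, 9 and 44. With 100 counts in every library, an alternative chosen after seeing the data, they were 2, 4, 5, 265, 33 and 84. With a mean of at least 100 counts, also chosen after seeing the data, 21 genes were lower in both and 10 opposite. The tests of both knockouts as 1 group gave 0 higher and 0 lower with edgeR and 2 higher and 4 lower with DESeq2. Size factors from DESeq2, library totals, the limit on scaled counts, a prior of 5 counts and a wider counting interval kept all 6 counts within 1.5 times. Of the named gene ratios under all alternatives, 925 stayed on their side of the rule, 32 no longer passed it and 3 newly passed it, and no called ratio changed sign. Of the list counts above or below the control in both knockouts, 217 stayed within 1.5 times and 23 did not. Among the latter, proteasome genes above in both numbered 4 with DESeq2 size factors, and with library totals tri-snRNP genes below in both numbered 4, mitosis genes below 5 and NF-kB genes above 1. No paired analysis was possible because each group has 1 library, and none could be left out. Depth limits both shared sets: 33 of the 47 lower genes had under 100 counts in both knockouts, and 9 of the 11 higher genes had under 100 in the control.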

Other observations

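Genes below the limit of the report, with 10 to 99 counts in their highest library, numbered 2545. Both knockouts were 2-fold lower than the control in 114 of them (4.48%) and 2-fold higher in 43 (1.69%), and they were opposite in 16 (0.629%). The genes here were named after their values were seen. PTN, the secreted growth factor pleiotrophin, had 28 counts in the control and 0 in both knockouts. CPED1 had 57, 0 and 9 counts, in the order of control, USP39-KO and SIRT7-KO used throughout. The fibrinogen beta chain FGB had 55, 1 and 2 counts. NRP1, a co-receptor for semaphorins and VEGF, had 95, 16 and 8 counts, and SEMA5A, a semaphorin, had 92, 14 and 3. The transcription factor CREB5 had 77, 6 and 2 counts. On the higher side, TH, tyrosine hydroxylase of the catecholamine pathway, had 2, 58 and 23 counts. The proteoglycan gene SPOCK1 went opposite ways, with 11, 0 and 84 counts. A gene of this depth that was high in 1 library only had to be low in the others to be called, so these shares are not comparable with those of the deeper genes.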
